A study of Mus musculus with 4 samples.

Results

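YTHDF2 is a cytoplasmic reader of N6-methyladenosine (m6A), the methyl mark that cells place on adenines of their mRNAs. Its YTH domain holds the methylated base, and the rest of the protein recruits the CCR4-NOT complex, which shortens poly(A) tails and so hastens the decay of the bound mRNA. Writers place the mark mostly within a short consensus whose core is often GGAC, and m6A is known to gather in long internal exons, around stop codons and in 3' UTRs. In blood, YTHDF2 is known for restraining stem and progenitor programmes, and acute myeloid leukaemia stem cells are known to depend on it.

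The study measured which RNAs YTHDF2 held in primary mouse leukaemia-initiating cells by RIP-seq, that is, sequencing of RNA that an antibody pulls down with its protein. All libraries came from bone marrow cells that the labels name lin-ckit+, grown with 10% fetal bovine serum, glutamine, IL3, IL6 and SCF. The labels give no oncogene, genotype, age or number of animals for these cells. The YTHDF2 group is 1 library from an antibody against the protein, the IGF2BP2 and YTHDC1 groups are 1 library each, and 1 input library served all 3 as control. Cells were irradiated at 254 nm with 120 mJ/cm2, 3 times, to fix RNA to protein, and the lysate was sonicated before the pull-down. There are no replicates, so every interval below is an exact Clopper-Pearson interval that covers counting error only, and no comparison was tested.

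The YTHDF2 list was taken whole: every peak called in the YTHDF2 immunoprecipitate over the input, 2834 of the 19866 peaks in the 3 reader lists. IGF2BP2 had 7069 peaks and YTHDC1 9963. A peak is a stretch where sequenced tags of the immunoprecipitate pile up above the local background, and its summit is the base with the highest pileup. Each summit was given the gene under it in GENCODE M21 (mouse build GRCm38), exons before introns and protein-coding genes first. Several equally ranked genes lay under 59 summits (2.08%). The lists carry no strand, so overlapping and antisense genes cannot be told apart, and a peak list does not show which tags also match a paralog or pseudogene.

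The sequences under 7 of the 8 coding summits with the smallest q-values are shown first, since the letters they share recur through the results. Each reaches 50 bases to either side of the summit in the mature mRNA, read 5' to 3' on the gene's own strand from GENCODE transcripts, lies in a single coding exon that no other transcript annotates as untranslated at the summit, and stands for 1 gene. Capitals mark GAGG and GACG, the tetramers that were most over-represented near YTHDF2 summits in the counts given below.
Srrm2: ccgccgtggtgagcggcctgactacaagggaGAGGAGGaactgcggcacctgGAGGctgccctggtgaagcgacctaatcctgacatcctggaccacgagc
Gm10800: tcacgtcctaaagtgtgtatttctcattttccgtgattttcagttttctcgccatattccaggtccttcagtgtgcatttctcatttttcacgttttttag
Ythdc1: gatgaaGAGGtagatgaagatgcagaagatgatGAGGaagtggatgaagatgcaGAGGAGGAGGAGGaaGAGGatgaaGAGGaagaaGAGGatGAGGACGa
Calr: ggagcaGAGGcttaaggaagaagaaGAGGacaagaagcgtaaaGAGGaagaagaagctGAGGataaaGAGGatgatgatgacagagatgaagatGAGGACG
Eif3a: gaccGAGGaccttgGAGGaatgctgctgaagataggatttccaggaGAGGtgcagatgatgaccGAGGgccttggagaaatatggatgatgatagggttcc
Myh9: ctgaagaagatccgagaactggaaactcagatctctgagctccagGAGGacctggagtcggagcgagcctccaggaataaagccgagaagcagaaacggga
Hsp90aa1: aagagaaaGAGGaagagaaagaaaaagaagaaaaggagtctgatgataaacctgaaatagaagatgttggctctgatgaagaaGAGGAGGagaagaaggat

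The Srrm2 window (chr17:23807044-23807144, plus strand, exon 2 of 15) encodes part of a scaffold of the spliceosome. The Gm10800 window (chr2:98667099-98667199, minus strand, exon 2 of 5) belongs to a predicted gene. Its reading as a coding exon rests on the annotation alone, and whether its tags come from an mRNA was not tested. The Ythdc1 window (chr5:86817078-86817178, plus strand, exon 4 of 17) lies in the mRNA of the nuclear m6A reader. The Calr window (chr8:84842709-84842809, minus strand, exon 9 of 9) encodes the acidic tail region of calreticulin, a calcium-binding chaperone of the endoplasmic reticulum. The Eif3a window (chr19:60766387-60766487, minus strand, exon 19 of 22) encodes part of the largest subunit of translation initiation factor 3. The Myh9 window (chr15:77771902-77772002, minus strand, exon 26 of 41) encodes part of the rod of nonmuscle myosin heavy chain IIA. The Hsp90aa1 window (chr12:110694191-110694291, minus strand, exon 5 of 11) encodes part of a stress-inducible cytosolic HSP90.

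GAGG stood in 6 of these 7 windows and GACG in 2, while the m6A core GGAC stood in 5. The Ythdc1 window held 10 copies of GAGG and 1 of GACG, and capitals cover 39.6% of it. Guanine made up 44.6% of the Ythdc1 window and 38.6% of the Calr window, which held 6 copies of GAGG and 1 of GACG. The Gm10800 window is the exception: it held neither tetramer nor GGAC, its guanine share was 14.9%, and its local background of 18.5 tags was the highest of the 7. In the Hsp90aa1 window adenine reached 49.5%, with 3 copies of GAGG.

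Most YTHDF2 peaks were low, and a minority were tall. The pileup, the number of tags stacked at the summit, ran from 2 to 200 with a median of 5. The fold over background ran from 2.93 to 48.8 with a median of 5.63, and the −log10 q from 2.05 to 207 with a median of 6.64. A pileup of 3 or less was found at 930 peaks (32.8%, 95% interval 31.1 to 34.6), and 1043 peaks (36.8%) had the shortest length, 100 bp. At the other end, 259 peaks (9.14%) had a pileup of 20 or more and 28 had 100 or more. The low peaks lay mostly in protein-coding genes, 89.4% of those with a pileup of 3 or less. Of the 28 tallest only 8 did, and 2 of the 28 lay in coding sequence.

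The local background, computed from pileup and fold, rose with pileup. It had a median of 0.0111 tags among peaks with a pileup of 3 or less, 1.74 among those of 20 or more, and 10.8 among the 28 of 100 or more. At 831 peaks (29.3%) it stood within 1% of its lowest value in the list. A background of 1 or more was found at 214 peaks (7.55%).

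**Figure D1:**
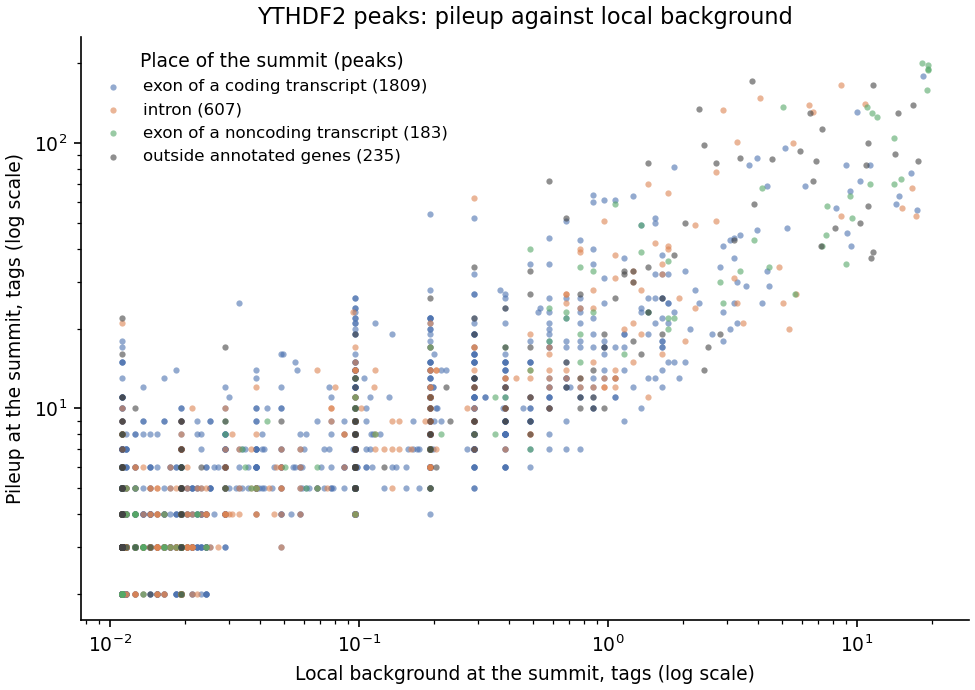
Each point is 1 of the 2834 YTHDF2 peaks. The horizontal axis gives the local background and the vertical axis the pileup at the summit, both in tags on log scales, and colours give the place of the summit. Peaks with a pileup of 3 or less sit at the left edge, and those of 100 or more sit at a median background of 10.8 tags.

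YTHDF2 summits lay foremost in coding sequence. By gene annotation, 1336 summits (47.1%, 45.3 to 49.0) fell in CDS, 349 (12.3%) in 3' UTRs, 124 (4.38%) in 5' UTRs, 183 (6.46%) in other exons, 607 (21.4%) in introns and 235 (8.29%) outside genes. The 3' UTR count includes summits that are untranslated in 1 transcript and coding in another. Of the summits counted in 3' UTRs, 334 could be placed on the gene's main transcript, its longest complete coding one. Of these, 152 lay in that transcript's CDS. With CDS ranked first, the CDS share was 53.5% and the 3' UTR share 6.77%.

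On main transcripts alone, 1764 summits could be placed. Of these, 1492 (84.6%, 82.8 to 86.2) lay in CDS, which makes up 60.8% of the bases of the same transcripts, a ratio of 1.39. In 3' UTRs the count was 182 (10.3%), against 32.1% of the bases, and in 5' UTRs 90 (5.10%), against 7.10%. The excess of coding over untranslated summits was thus found relative to annotated length as well as in number. The main transcript is the longest one annotated, and which transcripts these cells used is not in the files. By gene annotation the median pileup was 5 tags for CDS and 3' UTR, 7 for 5' UTR and 4 for introns.

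Within the coding sequence, summits thinned from the 5' to the 3' end. The first 10% of its length held 188 of the 1492 (12.6%, 11 to 14.4) and the last 10% held 102 (6.84%, 5.61 to 8.25). The first 50% held 55.4% (52.9 to 58.0). The same share was 57.4% for IGF2BP2 and 55.4% for YTHDC1, so a tilt to the 5' side was present in all 3 lists. The last exon of the transcript held 9.05% of YTHDF2 coding summits and 11.8% of the CDS bases. Exons of 400 nt or longer held 23.1% of summits and 23.8% of the bases. Summits kept away from exon junctions: 43.8% (41.3 to 46.4) lay within 50 nt of one, where 56.4% of the CDS bases lie, and the median distance was 57 nt.

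The bases around coding summits were rich in guanine. In windows reaching 50 nt to either side of the 1492 summits guanine averaged 33.5%, against 28.2% in the same coding sequences, and 83.4% of windows exceeded the guanine share of their own CDS. Cytosine was lower, at 21.2% against 24.7%, and so was uracil, at 17.6% against 19.9%. Adenine averaged 27.7% against 27.2%. The guanine share was higher around the summit than on both sides. It went from 28.9% at 200 nt upstream to 33.9% at the summit. It was highest 10 nt downstream, at 34.5%, and was 28.3% at 200 nt downstream. The lists of the other readers showed the same direction, with guanine 4.68 points above the coding sequence for IGF2BP2, 5.28 for YTHDF2 and 7.75 for YTHDC1.

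**Figure D2:**
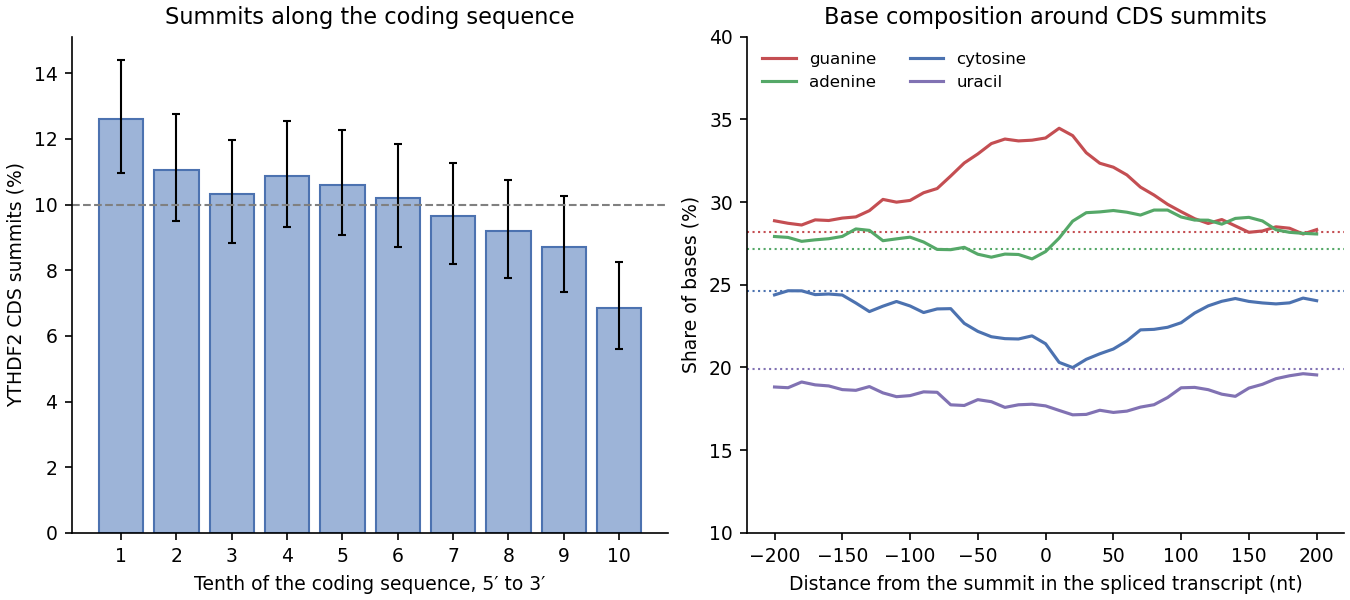
Left, the percentage of the 1492 YTHDF2 coding summits in each successive 10% of the coding sequence, with exact 95% intervals as bars and a dashed line at 10%, the value of an even spread. Right, the percentage of each base in 21-nt windows at distances of up to 200 nt from the summit, with dotted lines at the averages of the same coding sequences. Summits fall from 12.6% in the first bin to 6.84% in the last. Guanine is 33.9% at the summit and highest 10 nt downstream, at 34.5%.

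Among all 256 tetramers, each searched on the sense strand only, GACG had the highest ratio and GAGG the next. GACG stood in 30.6% (28.3 to 33.0) of the windows and in 21% of all windows of the same coding sequences, a ratio of 1.46. GAGG stood in 72.1% (69.8 to 74.4) against 53.3%, a ratio of 1.35. The pair can overlap each other by their shared G, as in GAGGACG. The lowest ratio was that of CATA, 0.374. GGAC, the m6A core, ranked 62 with 42.5% against 39.3%, a ratio of 1.08. Over all main-transcript summits, untranslated regions included, GGAC stood in 41.7% (39.4 to 44.0) of windows against 35.0%, a ratio of 1.19. This reference was not matched by region: 84.6% of the summits lay in CDS, against 60.8% of the transcript bases. A match to GGAC does not show that the adenine was methylated, and the files hold no m6A measurement.

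The purine-rich letters kept to the reading frame. Triplets that open with GA made up 22.7% of codons in the windows and 14.9% in the whole coding sequences, a ratio of 1.53. Read 1 base later the ratio was 1.18, and 2 bases later it was 1.22. GA-first codons encode the acidic residues glutamate and aspartate. Glutamate codons made up 15.5% of codons near summits against 9.33% in the same coding sequences, a ratio of 1.67, and aspartate codons 7.20% against 5.55%, a ratio of 1.30. Codons of lysine, a basic residue, were at 1.08 and those of leucine at 0.96. Tyrosine codons had the lowest ratio, 0.622, followed by histidine at 0.652 and isoleucine at 0.660.

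**Figure D3:**
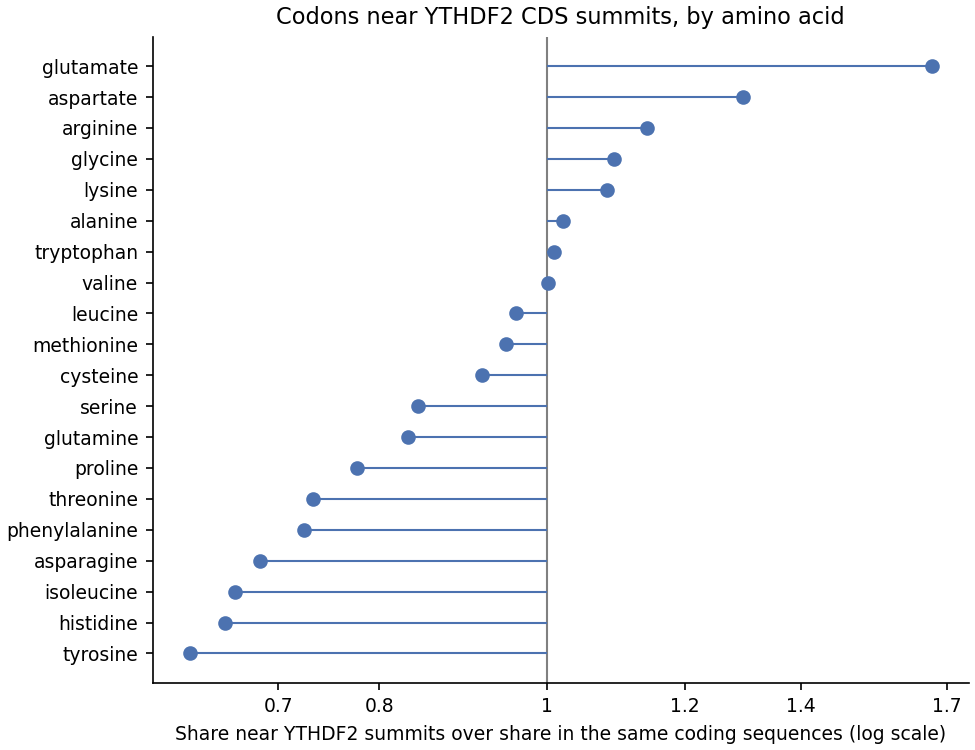
Each point is an amino acid, and the horizontal axis gives the share of its codons within 50 nt of YTHDF2 coding summits over their share in the same coding sequences, on a log scale. Glutamate stands apart at 1.67, aspartate follows at 1.30, and tyrosine is lowest at 0.622.

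Uninterrupted acidic stretches, such as those visible in the Ythdc1 and Calr windows, were over-represented most. A run of at least 5 glutamate or aspartate codons lay in the window of 160 of the 1492 summits (10.7%, 9.20 to 12.4). Of all positions in the same coding sequences, 2.55% have such a run in their window, a ratio of 4.20. The ratio was 3.76 for IGF2BP2, with 8.32% of its coding summits, and 5.19 for YTHDC1, with 12.0%.

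These sequence features grew with the height of the peak. At coding summits with a pileup of 3 or less, guanine exceeded the own coding sequence by 3.72 points and glutamate codons by a ratio of 1.43 (443 summits). At a pileup of 4 to 9 the values were 5.29 points and 1.65 (742 summits), at 10 to 19 they were 6.90 points and 1.90 (203 summits), and at 20 or more 8.71 points and 2.14 (104 summits). GAGG stood in 65.7% (61.1 to 70.1) of the lowest class and 83.7% (75.1 to 90.2) of the highest. Input signal rises with pileup too, as given above, and its part in this order was not tested. Without the peaks whose background was 1 or more, the guanine difference over all coding summits was 5.01 points and the glutamate ratio 1.63. These values pool 1425 of the 1492 coding summits, so they do not speak to the order by pileup.

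YTHDF2 peaks were spread over many genes, most with a single peak. At least 1 peak lay in 1507 of 22028 protein-coding genes, or 6.84%, and at least 2 in 477, or 2.17%. In all, 1030 genes had 1 peak and 58 had 5 or more. The 477 genes with several peaks carried 58.0% of the 2452 peaks in protein-coding genes. Genes with 1 peak had a median highest pileup of 4 tags, those with 5 or more a median of 14. The main transcripts of bound genes had a median length of 3782 nt, against 2683 nt for all genes, and those with 5 or more peaks 5470.5 nt. Across the 1497 bound genes with a main transcript, Spearman's rho of peak number and transcript length was 0.14. This is a description across genes of 1 library. Since the files hold no expression values, a gene without a peak may have been little expressed.

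Myh9 had the most peaks, 19 in all. Of these, 14 lay in exons of the main transcript, 4 in introns and 1 in another exon. Pileups ran from 3 to 88, and 6 peaks had 20 or more. The tallest, 88 tags at 17.9-fold, lay in exon 22 of 41, and the strongest by fold, 61 tags at 31.5-fold, in exon 26. Further tall summits stood in exon 33 with 51 tags, exon 23 with 32 and exon 2 with 25. Of the 14 exonic summits, 12 lay between 46.7% and 96.3% of the coding sequence, the part that encodes the coiled-coil rod of the protein. IGF2BP2 peaks covered part of 18 of the 19, and YTHDC1 peaks part of 15.

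The next genes by number of peaks were mostly long mRNAs of coiled-coil and centrosomal proteins. Nin, whose product ninein anchors microtubules at the centrosome, had 14 peaks. Its 13 exonic summits ran from the 5' UTR to 98.0% of the coding sequence, with pileups of 3 to 27, and the tallest 2, of 27 tags each, stood in exons 16 and 17 of 30. Cep128, a protein of centriole appendages, had 11 peaks with pileups of 3 to 11. Pcnt, which encodes the scaffold pericentrin, had 10, and its 8 exonic summits all lay in the first 37.7% of the coding sequence, with pileups of 2 to 22. Plec, which encodes the cytolinker plectin, also had 10, all low, with pileups of 3 to 8, and 5 of them remained at −log10 q of at least 5. Syne1, a giant spectrin-repeat protein of the nuclear envelope with a main transcript of 27908 nt, had 9 peaks with pileups of 3 to 11. Ccdc88c, a coiled-coil regulator of Wnt signalling, had 9 with pileups of 3 to 14.

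Eif3a and the bromodomain genes Baz2b and Baz1a completed the first 10. The 10 Eif3a peaks had pileups of 6 to 63, with a median of 27. Its 8 exonic summits lay between 45.0% and 97.8% of the coding sequence, and in 5' to 3' order had 35, 12, 19, 49, 63, 60, 35 and 19 tags. The window printed above is that of the 60-tag summit. Baz2b had 10 peaks with pileups of 3 to 19, of which 7 lay between 10.4% and 62.0% of its coding sequence and 3 in introns. Baz1a, a subunit of chromatin-remodelling complexes, had 9 peaks. Its tallest, 37 tags, lay in exon 23 of 27, followed by 35 tags in exon 9 and 33 in exon 1, in the 5' UTR, where the local background was 4.36.

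**Figure D4:**
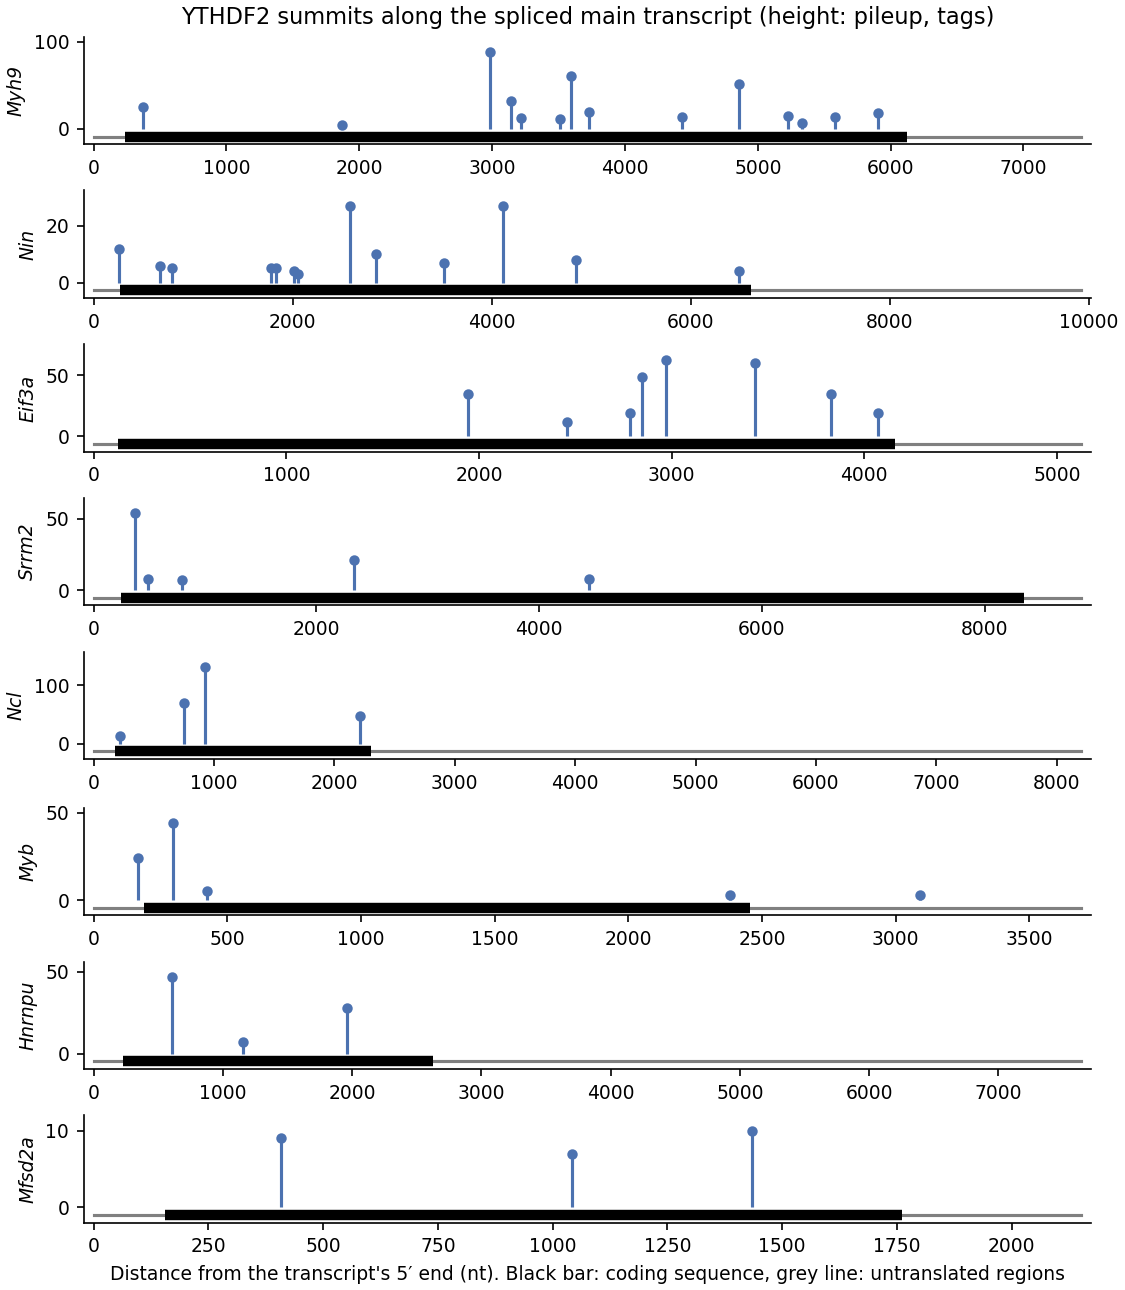
Each row is the spliced main transcript of a gene, with the coding sequence as a black bar and untranslated regions as a grey line; the horizontal axis is in nt from the 5' end. Each stem is a YTHDF2 summit in an exon, and its height is the pileup in tags. Of the 14 Myh9 summits 12 stand past 46.7% of the coding sequence, the 8 Eif3a summits start at 45.0%, and the 2 tallest of Myb stand at its 5' end.

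How far peaks were spread along the mRNA differed from gene to gene. The distance between the first and the last summit was taken for the 126 genes with 3 or more exonic peaks. Its median was 37.8% of the transcript, with quartiles of 20.9% and 57.8%. It reached at least 50% of the transcript in 44 of these genes (34.9%). The widest among genes with at least 4 exonic peaks was Kmt2d, which encodes a histone H3 lysine 4 methyltransferase, with 85.7% of 19823 nt. It was followed by Rps9, a ribosomal protein, with 82.9%, Myb with 79.2%, the elongation factor gene Supt6 with 78.2% and the centrosomal Cep250 with 75%. The narrowest were Kif21b, a kinesin, with 12.6%, Rbm25, a splicing regulator, with 12.9%, Smc1a, a cohesin subunit, with 13.5%, Msn, which encodes moesin, with 13.9%, and the chromatin remodeller Bptf with 14.1%. All 4 exonic summits of Rbm25 and of Smc1a lay in the coding sequence of the main transcript but under the 3' UTR of another annotated transcript.

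Relative to transcript length, the most densely covered mRNAs among genes with 3 or more exonic peaks were mostly short. A count divided by length favours short transcripts. Gm21887, a predicted gene, had 5.65 exonic peaks per kb, Slpi, a secreted protease inhibitor, 3.42, Gm47283, a predicted gene on the Y chromosome, 3.38 and Rps9 2.97. Card9, an adaptor of innate immune signalling, had 2.57, from 5 exonic peaks of 3 to 7 tags. Ptma had 2.47, Hnrnpa2b1 2.31, Eef1a1 2.23, Def6 2.20 and Pkm 2.06. The 4 Eef1a1 summits were evenly tall at 12, 12, 9 and 16 tags along the mRNA of this elongation factor. The 5 exonic Pkm summits, on the mRNA of pyruvate kinase, had 3, 9, 16, 8 and 4 tags, highest in exon 6 of 11.

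Among the 10 genes with the tallest single peaks, only Myh9 was also among the 10 with most peaks. At the tallest peaks of these genes the local background was 2.90 tags or more. Gm10800, which is coding only by prediction, had 179 tags over a background of 18.5. In Cmss1 the single peak had 165 tags over 8.61, in Peak1 141 over 10.7, in Cdk8 139 over 6.39 and in Il31ra 131 over 6.68, and all of these were intronic. Arhgap21 had an intronic peak of 133 tags over a lower background of 2.90, at 34.3-fold. Jarid2, a Polycomb cofactor, had an intronic peak of 100 tags over 5.52, and Lars2, a mitochondrial leucyl-tRNA synthetase, a 3' UTR peak of 96 tags over 5.13. Beside Gm10800, only Ncl, the gene of the nucleolar protein nucleolin, and Myh9 of these 10 had their tallest peak in a coding exon. The Ncl summits had 13, 69, 131 and 48 tags along exons 2, 3, 4 and 13 of 14, over backgrounds of 0.29, 4.36, 9.97 and 5.23, with an intronic peak of 9 tags. Whether the input signal at such places has a part in the calls was not tested.

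Grouped by function, YTHDF2 peaks were frequent in genes of the cytoskeleton, translation, chaperones, RNA processing and chromatin. A gene was counted with a peak of any kind, and 276 of the 1507 bound genes had intronic peaks only. All shares that follow stand against 6.84% of all protein-coding genes with a peak and a median highest pileup of 5 tags among them. The lists hold mostly genes that many cells express, whereas the reference counts every annotated gene, and expression was not in the files. The lists were chosen with earlier results of these data known, so their counts are descriptions.

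Of 24 cytoskeleton and myosin genes, 19 (79.2%) had a peak and 13 had 2 or more. Beside Myh9, Tuba1b, an alpha-tubulin, had 1 peak of 23 tags, Vim, an intermediate filament protein, 3 of up to 19, and Sptbn1, a spectrin, 5 of up to 17. Of 30 translation factors, 23 (76.7%) had a peak and 14 had several. After Eif3a came Eif3b with 1 peak of 34 tags in its first exon, and Eif4a2, an RNA helicase, with 1 of 34 in a noncoding exon. Eef2, the translocase of the elongating ribosome, had 5 peaks of up to 26 tags, and the poly(A)-binding Pabpc1 had 5 of up to 25.

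Of 15 nucleolar and acidic chaperone genes, 11 (73.3%) had a peak, and their median highest pileup was 25 tags, among the highest of the lists. Anp32b, an acidic nuclear phosphoprotein, had 25 and 83 tags in coding exons and 32 in an intron. Ptma, which encodes the acidic prothymosin alpha, had 14, 21 and 69 tags in exons 1, 2 and 4 of 5. Set, an inhibitor of histone acetylation, had 30 tags at 92.7% of its coding sequence. These tall summits stood over local backgrounds of 9.0 for Anp32b, 6.19 for Ptma and 3.29 for Set.

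Of 27 chaperones, 19 (70.4%) had a peak. Hsp90ab1, the constitutive cytosolic HSP90, had 83 tags in exon 6 of 11. Calr had 64 in exon 9 of 9 and 25 in exon 5, Hsp90aa1 61 in exon 5 of 11, and the endoplasmic reticulum chaperone Hspa5 43 in exon 2 of 9. At the tallest peak the local background was 3.68 for Hsp90ab1, 0.871 for Calr, 1.06 for Hsp90aa1 and 3.10 for Hspa5. Among RNA-binding proteins, 15 of 24 hnRNP genes (62.5%) had a peak, led in pileup by Hnrnpu with 47 tags, Hnrnpul2 with 44 and Hnrnpc with 40. These stood over backgrounds of 3.97, 3.19 and 0.871, at 9.66-fold, 10.7-fold and 21.9-fold. The same number, 15 of 24, was found for SR and splicing genes, led by Srrm2 with 54 tags at 46.1-fold and the U1 component Snrnp70 with 32. Hnrnpu showed its 47 tags at 15.9% of the coding sequence, and further coding summits of 7 and 28 tags. The 28-tag summit had the highest fold of these, 24.3, over a background of 0.194.

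Of 34 chromatin regulators, 21 (61.8%) had a peak, with a median highest pileup of 7 tags. Kmt2d and the remodelling ATPase Smarca4 reached 23 tags each over 5 peaks each, and the acetyl-lysine reader Brd2 had 22. Arid1b had 8 peaks, of which 7 were intronic, and Chd4 had 8, of which 4 were intronic. Of 11 high mobility group and related genes, 6 (54.5%) had a peak. The tallest was in Hmgb1, whose protein ends in an acidic tail, with 43 tags in exon 5 of 5.

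Ribosomal protein genes had a peak in 24 of 70 cases (34.3%), led by Rpl3 with 52 tags at 41.1-fold, Rps2 with 41 and Rpl7 with 27. Many ribosomal protein genes have near-identical processed pseudogenes, so their tags are uncertain. Glycolytic genes had a peak in 7 of 19 cases (36.8%), with 16 tags in Hk3 and in Pkm and 10 in Ldha. Replication and mitosis genes had one in 11 of 34 (32.4%), led by Cdk11b with 6 peaks of up to 24 tags and Cdk6 with 6 of up to 21, the tallest of these intronic. Of the histone genes 10 (9.90%) had a peak, the tallest 12 tags in H2afy. Of 365 genes with zinc finger symbols 13 (3.56%) had one, led by Zfp791 with 31 tags and Zfp330 with 15.

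Stem cell and leukaemia transcription factors had a peak in 11 of 36 cases (30.6%). The tallest belonged to Elf1, an ETS factor, with an intronic peak of 62 tags at 48.8-fold, the highest fold in the list, over a background of 0.29. Myb, a factor that progenitors and leukaemia cells depend on, had 6 peaks. In 5' to 3' order its exonic summits had 24 tags in the 5' UTR, 44 in exon 2, 5 in exon 4, and 3 each in the coding part and the 3' UTR of exon 16. An intronic peak had 10. Erg, another ETS factor, had 41 tags in its 3' UTR at 4.01-fold, and Zeb2 had 19. Among transcripts that are known as YTHDF2 targets in blood cells, 4 of 16 (25%) had a peak. Beside Myb these were Cebpa with 8 and 4 tags in the 3' UTR, Stat5b with 4 and Runx1 with 3.

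Surface receptor and signalling genes had a peak in 9 of 33 cases (27.3%). Cd44, an adhesion receptor of leukaemia stem cells, had an intronic peak of 41 tags, Cd47, the receptor that restrains phagocytosis, 2 intronic peaks of up to 10, and Stat3 2 coding peaks of up to 6. BCL2 family and apoptosis genes had one in 5 of 21 (23.8%), led by the anti-apoptotic Mcl1 with 20 tags over a background of 3.10 and by Mdm2 with 8. Of the marker lists for cell types, 1 of 8 progenitor genes (Myb) and 2 of 8 myeloid genes (Ctsg with 4 tags and Csf1r with 3) had a peak. None was found in 8 lymphoid, 6 erythroid, 4 megakaryocyte and 6 stromal markers. Kit, which the cells were selected for, had none, so peaks do not serve as a check of cell identity.

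**Figure D5:**
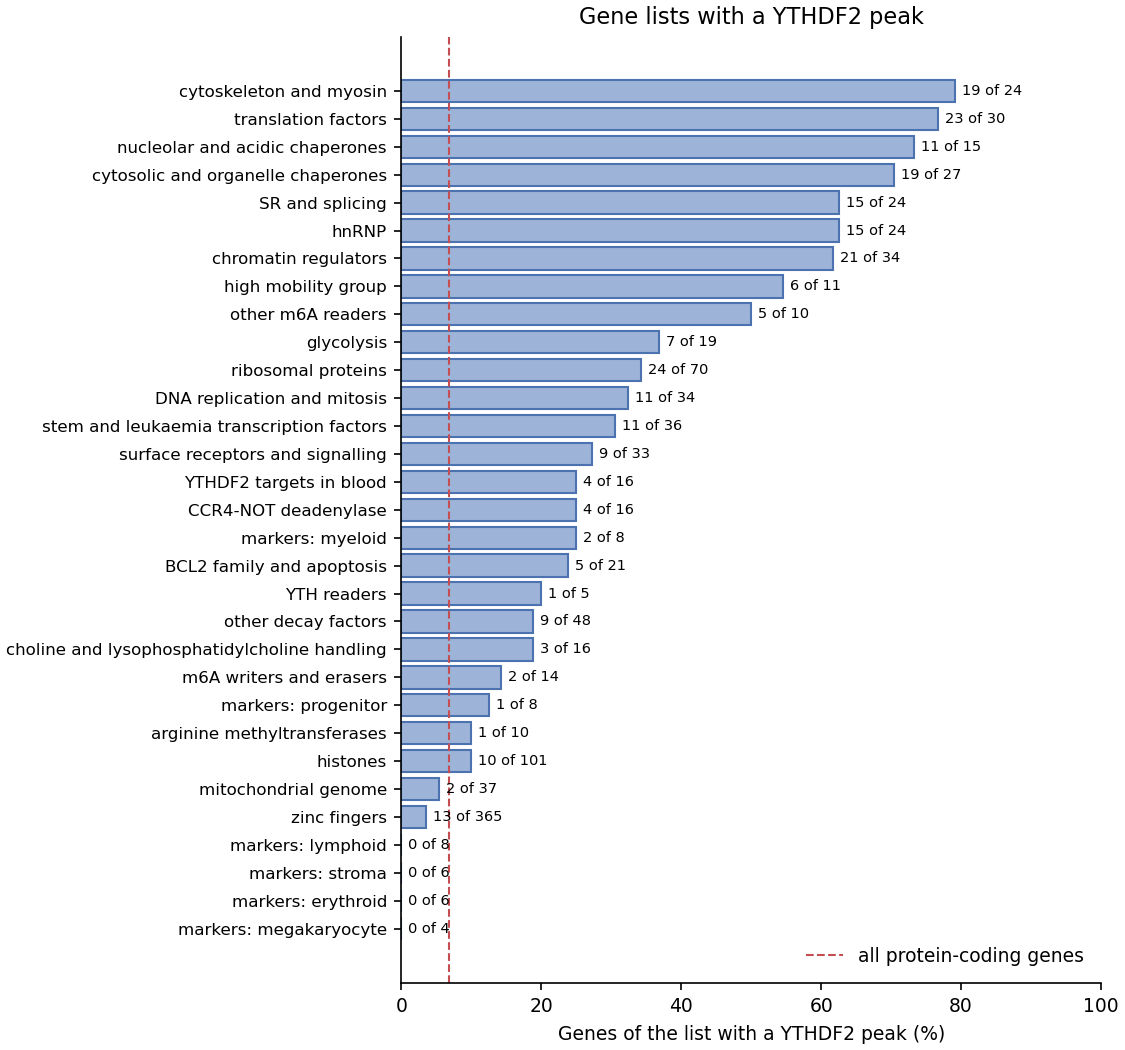
Bars give the percentage of genes in each list with at least 1 YTHDF2 peak, with the counts beside them, and the dashed line marks 6.84%, the share of all protein-coding genes. Cytoskeleton and translation genes lead with 79.2% and 76.7%, and the lymphoid, stromal, erythroid and megakaryocyte marker lists stand at 0.

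Among the genes of m6A and of mRNA decay, the share with a peak ran from 14.3% for writers and erasers to 50% for m6A readers outside the YTH family, against 6.84% of all protein-coding genes. Of 5 YTH readers only Ythdc1 (20%) had a peak, 81 tags at 28.9-fold in exon 4 of 17, over the acidic stretch printed above, and no peak lay in Ythdf2. Of 10 other m6A readers 5 (50%) had one: Hnrnpc with 40 tags, Hnrnpa2b1 with 4 peaks of up to 13, Prrc2a with 10, Fmr1 with 5 and Fxr1 with 3. Of 14 writer and eraser genes (14.3%) only the writer subunits Zc3h13, with 20 tags, and Virma, with 7, had a peak. Of 16 CCR4-NOT genes 4 (25%) had one: the adaptors Tob2 with 6 tags, Btg2 with 4 and Btg1 with 3, and the subunit Cnot2 with 2 in an intron. Of 48 other decay factors 9 (18.8%) had one, none above 8 tags, among them the nonsense-mediated decay factors Upf3b with 8, Upf2 with 7 and Upf1 with 6.

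The 2 genes that the series names gave different pictures. Prmt6, an arginine methyltransferase, had no YTHDF2 peak, and of its family of 10 genes only Prmt7 had one, of 3 tags. Mfsd2a, a transporter of lysophosphatidylcholine, had 4 peaks. In 5' to 3' order the pileups were 9 tags in exon 3 of 14, 7 in exon 8, 7 in an intron and 10 in exon 12. The folds were 7.21, 5.06, 7.05 and 9.22, and the exonic summits stood at 15.7%, 55.2% and 79.7% of the coding sequence. IGF2BP2 and YTHDC1 each had 1 peak in Mfsd2a. The peak in exon 8 fell out at −log10 q of at least 5. Of 16 choline and lysophosphatidylcholine genes, 3 (18.8%) had a peak, the others being the choline transporter Slc44a2 with 7 tags and Pcyt1a, an enzyme of phosphatidylcholine synthesis, with 4.

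Most YTHDF2 peaks were shared with another reader. Of the 2834, 1859 (65.6%) overlapped an IGF2BP2 peak by at least 1 bp, 1626 (57.4%) a YTHDC1 peak, 1257 (44.4%) both and 606 (21.4%) neither. The lists share 1 input, and no test of the overlap was made. Overlap with any other reader was lowest at low pileup. It went from 57.3% (54.1 to 60.5) at 3 or less to 98.1% (96.2 to 99.3) at 10 to 19, and was 95.4% (92.0 to 97.6) at 20 or more. Peaks of YTHDF2 alone were low, with a median pileup of 3, and 33.8% of them lay in CDS, against 55.1% of those shared with both readers.

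Genes bound in the YTHDF2 list alone were correspondingly weak. Of the 1507 genes 132 had no peak of another reader, and their median highest pileup was 3 tags. The tallest were Gm10719 with 63 tags, Gm11168 with 57 and Gm10718 with 56, neighbouring predicted genes on chromosome 9 with local backgrounds of 14.8 to 17.4. Their folds were low, at 4.05, 3.60 and 3.09. Close to them, the noncoding Gm26870 (chr9:3000493-3000648) had 105 tags and overlapped an IGF2BP2 peak. Whether tags at these neighbours also match one another is not in the lists, so they cannot be taken as genes particular to YTHDF2. After these came single intronic peaks of 9 tags in C130060K24Rik and 8 in Dcaf10. Among the 205 genes with 3 or more YTHDF2 peaks, 129 had as many peaks or more in both other lists, which are longer. Only 13 had more YTHDF2 peaks than peaks of each other reader. Beside Mfsd2a these included Ncl with 5 against 4 for IGF2BP2 and 3 for YTHDC1, Eef2 with 5 against 4 and 3, and Eef1g with 5 against 3 and 2. Lamp2, a lysosomal membrane protein, had 5 coding peaks of 3 to 7 tags against 4 for IGF2BP2 and 0 for YTHDC1.

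Intronic peaks were low in the median but included some of the tallest. Of the 28 peaks of 100 tags or more, 8 were intronic (28.6%), against 21.4% of all peaks. In protein-coding genes there were 577 intronic peaks in 469 genes, and 276 genes had no other kind. Their median pileup was 4 tags and 244 (42.3%) had 3 or less. They lay deep in the genes, at a median of 24602 bp from the gene start, and 35 (6.07%) lay within 2 kb of it. The 20 tallest stood over a median background of 2.71 tags, against 0.0194 for all of them.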

How the data were processed

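RNA bound to YTHDF2 in primary mouse cells was sequenced in 1 library and compared with 1 input library. The mouse build was GRCm38 and the tools were HISAT2, Trim Galore and bcl2fastq 2.17, per the submitters' processing notes. For the peak caller the name is not given in the sources used here. The files hold no library totals, so depth is unknown. Per the labels' protocols, 1 ug of RNA entered a stranded library kit, with 20 PCR cycles and selection at 250 to 450 bp; no molecular identifiers are named. The authors' deposited tables give for each peak the pileup signal at the summit, the fold (a ratio) over background, the −log10 p and q, and a score that equals 10 times −log10 q as a whole number in all 2834 peaks. These values are the authors' own and were used only to describe, rank and filter peaks within a list.

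The local background was computed as (pileup + 1) / fold − 1, assuming a pseudocount of 1. Summits were placed with GENCODE M21 in Python 3.11.15 with pandas 2.3.3, numpy 2.4.6 and SciPy 1.17.1; placement and motif counts were tested on toy genes with known answers. The main transcript is the longest complete protein-coding one. Windows of 50 nt to either side of the summit in the spliced transcript were used for sequence counts, and the compared share averages all positions of the same coding sequences, weighted by summits. With 1 library a group no test was made. The sequence of 1 window is not reported here.

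Genes were named by rule: Prmt6 and Mfsd2a, the 10 with most peaks, the 10 tallest, the 10 densest among genes with 3 or more exonic peaks, the 5 widest and 5 narrowest among those with 4 or more, the 5 tallest noncoding genes, the 5 tallest intergenic or intronic peaks, the 5 tallest without another reader, and the tallest 2 to 4 of each list, with YTH and CCR4-NOT members in full. Genes named beyond this rule were chosen after their values were seen. The members, lists and tetramers were chosen with earlier results of these data known. Alternatives were stricter thresholds (−log10 q, fold and pileup of at least 5), other windows, region order and overlap.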

Additional observations from a re-analysis of the deposited data

How the results depend on the processing

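Values were recomputed with only peaks of −log10 q, fold or pileup of at least 5. The 2834 peaks became 2185, 1538 and 1572, the 1507 genes 1197, 838 and 849, and the 477 genes with 2 or more peaks 345, 248 and 255. The CDS share stayed within its interval in all 3 (47.2%, 47.9% and 47.6%). The 5' UTR share was 5.59% and 5.53%, and the intron share 18.6% and 18.7%, at a fold or a pileup of at least 5. With CDS ranked before UTRs the shares were 53.5% for CDS, 6.77% for 3' UTRs and 3.56% for 5' UTRs. GGAC stood in 24.1% of windows of 25 nt to either side and 65.5% of those of 100 nt. Over the same whole transcripts, not matched by region, the shares were 19.5% and 56.3%. Overlap with another reader was 82.0% at −log10 q of at least 5, and 75.8% when at least 50% of the YTHDF2 peak had to be covered. The median span was 36.7% and 34.3% at a −log10 q and a pileup of at least 5. Counting every gene with an exon under a peak gave 1363 genes. The following were added after seeing the data. The guanine difference was 6.31 points at a pileup of at least 5 and 6.0 with 1 summit per gene. The glutamate ratio ran to 1.80 and 1.79 in the same settings, and the GAGG ratio to 1.4 and 1.38. Of 43 named genes, 39 kept their number of peaks within 1.5 times at −log10 q of at least 5; Plec had 5, Card9 3, Supt6 3 and Dcaf10 0. No paired analysis was possible because each group has 1 library. Sequencing depth is unknown, and a pileup of 3 or less, found at 930 peaks, leaves little room to tell a binding site from its absence.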

Other observations

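The 5 noncoding genes with the tallest YTHDF2 peaks all had a high local background. Gm23935, annotated as a miRNA gene, had 200 tags, Gm26917, annotated as a lincRNA, 197, Rn7s2 190, Rn7s1 188 and Rn7s6 158, over local backgrounds of 18.2 to 19.4 tags. The Rn7s genes encode the RNA of the signal recognition particle. Rn7sk, the RNA that holds the elongation factor P-TEFb inactive, had 130 tags over 11.5. Of the 28 peaks with 100 tags or more, 27 overlapped peaks of both other readers. The tallest peaks outside annotated genes had 172 tags at 36.2-fold and 165 tags at 13.2-fold, and D130009I18Rik had an intronic peak of 148 tags at 29.4-fold.

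The long noncoding RNA Malat1, which stays in the nucleus, had 5 YTHDF2 peaks of 8, 11, 59, 68 and 137 tags. The tallest was 22.9-fold over a background of 5.03, and the 59-tag peak was 29.1-fold over 1.06. Neat1, the RNA that builds paraspeckles, had peaks of 3, 18 and 19 tags, and Gas5, a host of small nucleolar RNAs, of 3, 4 and 5. The mitochondrial ribosomal RNA mt-Rnr2 had peaks of 45, 52 and 58 tags and mt-Rnr1 1 of 27, over backgrounds of 5.61 to 9.58. All 4 overlapped IGF2BP2 peaks and none a YTHDC1 peak. No other gene of the mitochondrial genome had a peak, of 37 in all.

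The Y chromosome held 49 YTHDF2 peaks, of which 44 lay outside annotated genes and 35 overlapped another reader's peak. Their median pileup was 6 tags over a background of 0.0194. IGF2BP2 had 116 peaks there and YTHDC1 78. The unplaced scaffold JH584304.1 held 9 YTHDF2 peaks of up to 91 tags, against 3 for IGF2BP2 and 0 for YTHDC1, over a median background of 11. In annotated pseudogenes there were 70 peaks (2.47%), with pileups of up to 49.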
